A study of Homo sapiens with 9 samples.

Results

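The difference between the decitabine response of K562 cells and that of HEL cells was measured on 5 of the 9 expression arrays of a study of differentiating leukemia cell lines. K562 is a chronic myeloid leukemia line that carries the BCR-ABL1 fusion, and HEL is an erythroleukemia line driven by an activated JAK2 kinase. The arrays were 2 of untreated K562 (1 labelled a replicate, with nothing on whether the cultures were separate), 1 of K562 with 100 nM decitabine (DAC), 1 of untreated HEL and 1 of HEL with 20 nM DAC. DAC was given as 3 pulses of 24 h, and treated cells were harvested 144 h after the first. All cells were grown in the same serum-supplemented medium, and the labels name no genetic change in either line. The HEL concentration is the one in the sample title, which the protocol shared by the samples does not list. Line and concentration therefore changed together, and the part of each in a difference cannot be told apart.

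DAC is a cytidine analog that is built into DNA, where it traps DNA methyltransferases, so that cytosine methylation is lost as cells divide. Genes that are silenced by methylated CpG dinucleotides in their promoters can then be transcribed again. K562 and HEL both keep features of red cell and platelet precursors, which makes heme, globin and red cell membrane genes a natural readout of their differentiation.

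Expression values were log2 units after GCRMA, in which 1 unit is a 2-fold step. Of 27306 probe sets, 18120 named 1 gene and reached 5 on at least 1 of the 5 arrays, and they gave 10239 genes, each represented by its brightest probe set. The interaction of a gene is its change in K562 (DAC array minus the mean of the untreated pair) minus its change in HEL (DAC minus untreated). Values below 5 were raised to 5 before classes were formed, so that dim probe sets do not give changes. Neither HEL array nor the K562 DAC array had a replicate, and these bulk values cannot tell fewer expressing cells from less RNA per cell.

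The labels were checked against marker genes first. All 8 measured erythroid markers were at 5 or more on every array. Of 6 measured megakaryocyte markers, all were at 5 or more in HEL and only ITGA2B, a platelet integrin chain, was in K562. Few markers of other cell types were measured, namely 2 of 12 for monocytes and granulocytes, 2 of 8 for lymphocytes and 2 of 5 for fibroblasts. The T cell receptor subunit CD3D was one of them, at 10.42 and 11.01 in untreated K562 and 8.51 with DAC, against 3.45 and 5.85 in HEL.

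The K562 response was the larger of the pair. In K562, 497 genes (4.85% of those tested) were at least 2-fold higher with DAC and beyond both untreated arrays, and 647 (6.32%) were lower. In HEL, 66 genes (0.645%) were at least 2-fold higher and 83 (0.811%) lower. Across genes the changes had an SD of 0.72 in K562 and 0.34 in HEL, beside an SD of 0.53 between the untreated K562 arrays themselves, of which 675 genes (6.59%) differed 2-fold. The changes in the lines had a Pearson correlation of 0.24 across the 10239 genes, which are not independent of each other.

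As a size, the interaction reached at least 1 in 687 genes (6.71%) that responded more positively in K562 and in 792 genes (7.74%) that responded more negatively, here on the values as deposited. In the limma fit of the 5 arrays, 0 genes (0.0%) had an adjusted p under 0.05, the smallest was 0.712, and 659 genes had an unadjusted p under 0.05. That fit has 1 residual degree of freedom, from the untreated K562 pair, so its p-values measure only the spread of that pair, which may be technical, and assume that every other array varies likewise. The classes below are thus descriptions of size, formed from the values they describe, with no test.

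The largest class was 577 genes (5.64%) lower in K562 and quiet in HEL, where quiet means less than a 1.5-fold change. Another 422 genes (4.12%) were higher in K562 and quiet in HEL. Only in HEL were 27 genes (0.264%) higher and 57 (0.557%) lower. Opposite changes were found for 2 genes higher in K562 and lower in HEL (0.0195%) and 1 gene the other way round (0.00977%). Both lines shared 21 genes that were higher (0.205%) and 15 that were lower (0.146%), which are 31.8% and 18.1% of the HEL lists and 4.23% and 2.32% of the K562 lists. TUBB3, a neuronal tubulin, lay just inside the limit with a change of 1.02 in K562, and the histone gene H2AC6 just outside with 0.94.

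The untreated K562 arrays were not equally far from the DAC array. Replicate 1 was above replicate 2 in 303 of the 422 genes higher in K562 alone (71.8%) and in 117 of the 577 genes lower in K562 alone (20.3%), against 42.5% of all genes, so that replicate 1 lay nearer to the DAC array. Set against replicate 1 alone, 339 genes were higher and 490 lower in K562 alone, and set against replicate 2 alone, 721 and 907. Of the 422 genes, 286 were called against replicate 1 alone and 393 against replicate 2 alone. Of the 577, 420 and 545 were. The part of this difference in the classes was not tested, and values of both untreated arrays are given throughout.

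In 17 genes (0.166%) the K562 change raised from below 5 a gene that HEL already expressed without DAC. Each was below 5 on both untreated K562 arrays and at least 2-fold higher with DAC. In untreated HEL each was at 7 or more, and each was quiet there. The K562 level with DAC did not have to reach 7, and the lowest there were SPINK4 at 6.02 and MYG1 at 6.06. ALOX12, the platelet-type 12-lipoxygenase, was at 3.73 and 3.36 in untreated K562, at 10.55 with DAC, and at 10.35 and 10.27 in HEL without and with DAC. Its K562 level with DAC was thus about that of HEL, and its interaction was 5.64, the largest of the class. CA1, a carbonic anhydrase of red cells, went from 3.65 and 3.14 to 9.84 in K562 and stood at 13.99 and 13.86 in HEL, an interaction of 4.97. LXN, which encodes the carboxypeptidase inhibitor latexin, was at 2.35 on both untreated K562 arrays, 9.03 with DAC, and 9.16 and 9.09 in HEL. EPB42, a protein of the red cell membrane skeleton, was at 3.68 on both untreated arrays, 8.57 with DAC, and 12.32 and 12.16 in HEL. CA1 and EPB42 in K562 with DAC thus stayed below their HEL levels, whereas LXN came close to its own. DNAJA4, a heat shock protein 40 family member, was at 4.72 and 3.80 in untreated K562, 7.77 with DAC and 8.61 and 8.51 in HEL. The other members, with interactions of 1.02 to 2.66, were TNS1, ABCB9, SPINT2, DPF3, ZNF567, GPX1, CALB2, ABAT, MARCHF2, ENDOD1, SPINK4 and MYG1.

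Other probe sets bore differently on this class. Of the 17 genes, 6 had other kept probe sets, and in none of these did all others meet the class. For DNAJA4, 1 of the other probe sets did. TNS1, a focal adhesion protein, was at 7.39 and 7.71 in HEL by the probe set used, but another read 2.34 on both HEL arrays, and 2.33, 2.26 and 7.07 in K562, so that the gene was silent in HEL by that one. The selenoprotein GPX1, a glutathione peroxidase, had a single probe set, at 2.25 on both untreated K562 arrays, 6.42 with DAC and 12.26 and 11.99 in HEL. The reverse class held 1 gene (0.00977%), NXN, which encodes the redox protein nucleoredoxin. It was at 4.60 and 6.13 in HEL without and with DAC and at 8.65, 8.69 and 8.98 in K562, and its interaction was -0.83.

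**Figure D1:**
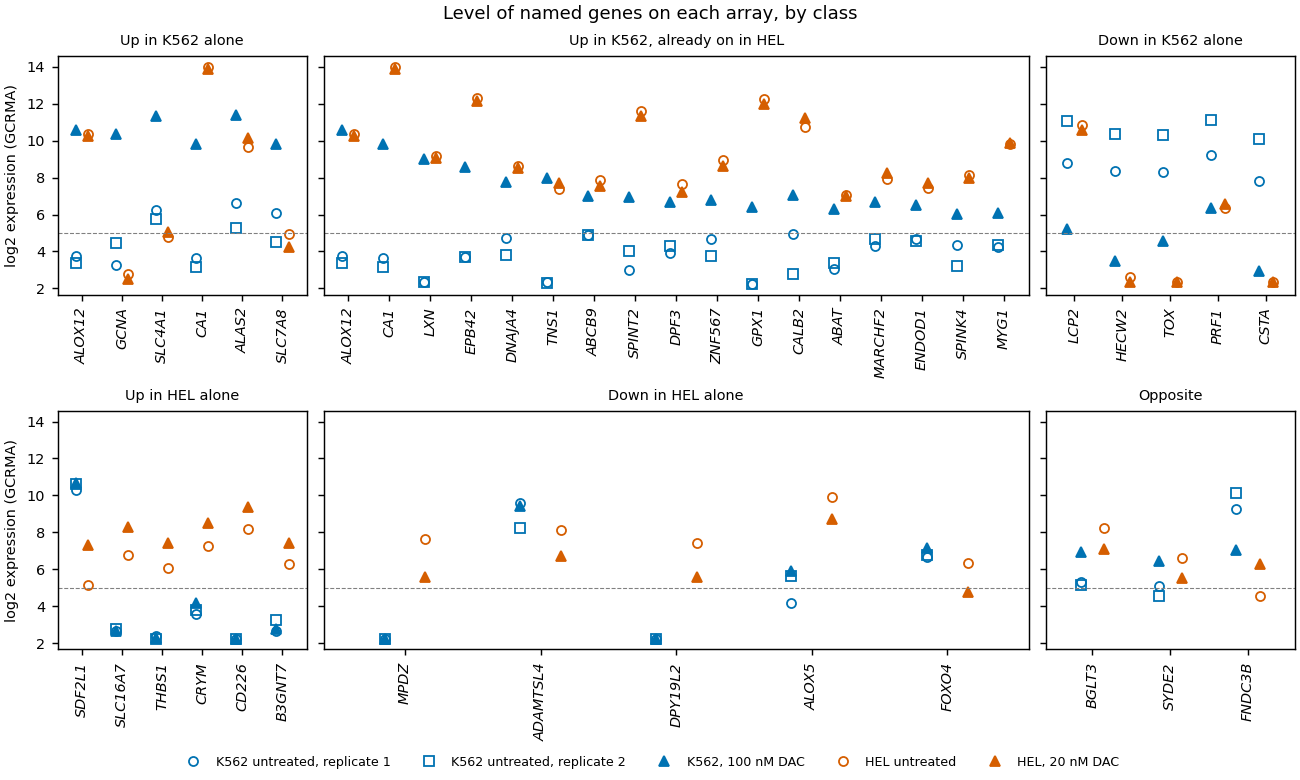
Log2 expression on each of the 5 arrays (circles and squares, untreated; triangles, DAC; blue, K562; orange, HEL) for the genes named in each class, with all 17 already-on genes in the upper middle panel and a dashed line at 5. There, the K562 triangles rise from below the line into the range of HEL for ALOX12, LXN and TNS1 and stay below it for CA1, EPB42 and GPX1.

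Of the 422 genes higher in K562 alone, 264 were at 7 or more in untreated HEL (62.6%, against 70.4% of all genes) and 79 were below 5 on both HEL arrays (18.7%, against 7.9%). Raising values to 5 left these 79 no HEL change, so the limit itself made them quiet there. In 54 of the 422 genes both untreated K562 arrays were below 5. HEL was below 5 on both arrays in 28 of these 54, so they were silent in both untreated lines and were measured in K562 with DAC only, a subclass formed after the values were seen. That subclass passed the filter only through the K562 DAC array, and the limit of 5 left it no HEL change in the classes. GCNA, a germ cell nuclear protein, led it with 3.26 and 4.47 in untreated K562, 10.38 with DAC, and 2.77 and 2.53 in HEL. IFI27, an interferon-stimulated gene, was at 2.26 and 2.25 in untreated K562, 8.98 with DAC and 2.25 on both HEL arrays. AHSP, the chaperone of alpha globin, was at 2.44 and 2.25, then 7.29 with DAC, and 2.25 on both HEL arrays. For these genes the single K562 DAC array stood far above the other 4. CYP3A5, a drug-metabolizing cytochrome, was at 4.53 and 4.02, 7.93 with DAC, and 3.46 and 3.36 in HEL, and its other 2 probe sets also placed it in K562 with DAC alone. The adhesion molecules CD93 (2.62, 2.25 and 7.12 in K562) and MCAM (2.98, 3.08 and 6.67) and the transcription factors GATA5 (2.87, 2.87 and 6.54) and TFAP2B (2.33, 2.33 and 6.18) followed. RBP5, a retinol-binding protein, was at 2.52, 2.27 and 8.35 in K562 and at 3.10 and 4.95 in HEL, so its HEL values also differed, below the limit of 5. In HEL, 2 genes were silent in both untreated lines and measured with DAC, ZNF560, a zinc finger gene (4.79 and 6.24), and RLN1, a relaxin (4.60 and 6.08), and both were at 2.25 on all K562 arrays. They likewise passed the filter only through the HEL DAC array.

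The annotated promoters of a few genes higher in K562 alone differed in sequence. The arrays measured RNA, so which start K562 used for each gene, MEST among them, was not measured. Each is 300 bases from RefSeq (GRCh38.p14), from 250 bases before to 50 after the annotated start, in the direction of transcription. The germline gene GCNA (chrX:71578187-71578486, plus strand, 21 CpG), the already-on genes ALOX12 (chr17:6995799-6996098, plus, 25 CpG) and LXN (chr3:158672599-158672898, minus, 9 CpG) and the imprinted gene MEST (chr7:130485925-130486224, plus, 13 CpG) are printed with each CG in capitals.
GCNA: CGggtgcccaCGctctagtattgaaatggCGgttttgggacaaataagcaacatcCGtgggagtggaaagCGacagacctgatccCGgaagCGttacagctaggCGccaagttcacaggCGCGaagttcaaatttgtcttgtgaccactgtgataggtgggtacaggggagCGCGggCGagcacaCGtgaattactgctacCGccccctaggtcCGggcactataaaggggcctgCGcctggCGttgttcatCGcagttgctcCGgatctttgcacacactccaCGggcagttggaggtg
ALOX12: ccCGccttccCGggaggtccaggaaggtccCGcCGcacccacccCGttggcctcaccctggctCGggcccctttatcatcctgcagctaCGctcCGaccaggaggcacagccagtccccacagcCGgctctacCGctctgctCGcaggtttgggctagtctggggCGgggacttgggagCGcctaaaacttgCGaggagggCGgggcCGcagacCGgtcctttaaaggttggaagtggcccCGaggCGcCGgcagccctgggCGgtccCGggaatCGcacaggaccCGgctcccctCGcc
LXN: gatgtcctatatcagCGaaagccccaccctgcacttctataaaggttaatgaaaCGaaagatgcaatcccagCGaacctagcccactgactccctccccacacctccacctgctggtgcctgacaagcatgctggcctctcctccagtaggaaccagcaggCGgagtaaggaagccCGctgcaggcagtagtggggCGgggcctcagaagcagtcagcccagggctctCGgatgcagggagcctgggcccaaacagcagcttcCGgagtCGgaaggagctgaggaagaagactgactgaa
MEST: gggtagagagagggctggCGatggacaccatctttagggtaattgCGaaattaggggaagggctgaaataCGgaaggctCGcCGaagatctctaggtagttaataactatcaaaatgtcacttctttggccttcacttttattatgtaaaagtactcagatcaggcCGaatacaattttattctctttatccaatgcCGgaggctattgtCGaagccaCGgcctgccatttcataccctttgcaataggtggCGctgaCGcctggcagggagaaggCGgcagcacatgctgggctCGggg
The red cell genes ALAS2 (chrX:55030928-55031227, minus, 3 CpG) and EPB42 (chr15:43220969-43221268, minus, 1 CpG) are printed with AGATAA or TGATAA, or their reverse complements, in capitals. These are some of the letter sets that GATA factors bind, and other forms were not searched or marked.
ALAS2: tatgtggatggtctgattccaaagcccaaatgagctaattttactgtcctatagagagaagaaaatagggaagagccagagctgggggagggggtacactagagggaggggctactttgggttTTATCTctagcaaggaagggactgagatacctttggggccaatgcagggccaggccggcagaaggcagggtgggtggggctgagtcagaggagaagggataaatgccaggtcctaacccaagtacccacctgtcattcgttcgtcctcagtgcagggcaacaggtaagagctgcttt
EPB42: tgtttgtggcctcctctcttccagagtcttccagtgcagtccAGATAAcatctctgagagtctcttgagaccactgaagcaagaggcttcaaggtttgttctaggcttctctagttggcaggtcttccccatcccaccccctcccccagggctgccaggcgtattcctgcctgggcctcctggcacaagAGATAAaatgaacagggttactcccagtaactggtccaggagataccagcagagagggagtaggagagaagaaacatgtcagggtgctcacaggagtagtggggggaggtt
These 6 windows ran from 25 CpG in ALOX12 to 1 in EPB42, and the GATA letters themselves hold no CG. ALOX12 holds a searched form too, unmarked.

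A promoter was matched by symbol for 8495 of the 10239 genes (83.0%), whose windows held a median of 27 CpG. For the 422 genes higher in K562 alone the check is void, since 325 of them (77.0%) were matched, under the limit of 80% set for reading a class. Their matched windows had a median of 27 CpG, as over all genes, 19.4% held 10 or fewer and 9.85% held the GATA letters. In the 54 genes that were also below 5 in untreated K562, 48 were matched, with a median of 13 CpG, and 45.8% held 10 or fewer, against 11.0% of all matched genes tested. All 27305 RefSeq promoters had a median of 14 and 45.6%. The already-on class, with 14 matched of 17, had a median of 20.5 CpG, and the 28 genes silent in both untreated lines, with 25 matched, had a median of 21. One of the GATA letter sets searched, on either strand, was in 3 of the 14 already-on windows (21.4%), in 7.97% of all matched genes tested and in 16.6% of all RefSeq promoters. These shares are a description of letters in short windows, for classes whose dim members were kept only through the arrays where they were high.

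Other genes higher in K562 alone were at 5 or more on at least 1 untreated K562 array. SLC4A1, the anion exchanger band 3 of the red cell membrane, was at 6.24 and 5.74 in untreated K562 and 11.34 with DAC, against 4.79 and 5.06 in HEL, and its interaction was 5.29. ALAS2, the erythroid form of the first enzyme of heme synthesis, was at 6.63 and 5.26, then 11.39 with DAC, and at 9.66 and 10.16 in HEL. Its interaction was 4.95 with a limma SE of 1.34, which reflects the distance between its untreated K562 arrays. SLC7A8, a transporter of neutral amino acids, was at 6.08 and 4.54, 9.84 with DAC, and 4.94 and 4.25, below the limit, in HEL. In these genes the K562 DAC array was the highest of the 5. The adjusted p from limma was 0.712 for each, as for most genes named here, and was 0.712 or more for all.

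Red cell genes were taken as lists next. The lists here and below were chosen with earlier results of these data known, so their counts are descriptions. Of 19 measured red cell membrane and blood group genes, 10 were higher in K562 and quiet in HEL, none was lower, and the median change was 1.44 in K562 and 0.00 in HEL, where medians over all genes were 0.00 and 0.00. Over all genes tested, 4.12% were of that class. Besides SLC4A1 and EPB42 they included RHD, the Rh D antigen, at 6.35, 5.93 and 10.16 in K562 and 10.95 and 11.41 in HEL. ADD2, beta adducin of the membrane skeleton, was at 9.66, 9.14 and 10.93 in K562 and 6.07 and 6.07 in HEL, though 1 of its 3 other probe sets fell by 1.06 in K562. SPTB, beta spectrin, was at 7.09, 5.14 and 8.30 in K562 and 7.29 and 7.14 in HEL. RHD was higher in HEL than in K562 with DAC, and ADD2 and SPTB were lower. TMOD1, tropomodulin-1, which caps actin filaments of the membrane skeleton, was at 8.90, 8.44 and 10.48 in K562 and 7.19 and 7.41 in HEL. Of the 19 genes, 10 were higher in K562 against replicate 1 alone and 11 against replicate 2 alone.

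Of 12 heme synthesis genes, 5 were higher in K562 alone (ALAS2, SLC25A37, FECH, PPOX and UROS) and none was lower in either line, beside 4.12% of all genes higher in K562 alone, 5.64% lower in K562 alone and 0.811% lower in HEL. FECH, ferrochelatase, which inserts the iron, was at 9.76 and 9.14 in untreated K562, 11.95 with DAC, and 10.58 and 10.86 in HEL. SLC25A37, the mitochondrial iron importer mitoferrin-1, was at 11.50, 10.38 and 13.70 in K562 and 12.56 and 12.81 in HEL. Its 9 other probe sets were all higher in K562, by 0.39 to 3.32, but in HEL they ran from -1.25 to 1.61. PPOX, protoporphyrinogen oxidase, was at 8.81, 8.48 and 11.12 in K562 and 8.99 and 9.40 in HEL. In each of these the K562 DAC array was the highest of the 5. Of 8 erythroid markers, 6 were higher in K562 (4.85% of all genes were) and 1, the embryonic globin HBZ, in HEL as well. HBZ was at 14.71, 12.05 and 16.27 in K562 and 9.96 and 11.08 in HEL. KLF1, an erythroid transcription factor, was at 10.96, 9.58 and 11.84 in K562 and 11.11 and 11.00 in HEL, and was not past 2-fold against replicate 1 alone. Against replicate 1 alone 2 of the 8 markers were higher in K562, and the median interaction was 0.52 in place of 1.18, whereas 6 were against replicate 2 alone, with a median of 2.05.

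Genes lower in K562 alone were in part on in HEL and in part off there. LCP2, an adaptor of immune receptor signalling, was at 8.81 and 11.07 in untreated K562 and 5.24 with DAC, while HEL read 10.86 and 10.60. Its interaction of -4.44 had an SE of 2.20 because the untreated arrays were 2.26 apart. PRF1, the pore-forming protein perforin, was at 9.22 and 11.10, 6.35 with DAC, and 6.34 and 6.59 in HEL, so that K562 with DAC came to the HEL level. Another group was at the lowest values in HEL throughout. HECW2, a ubiquitin ligase, was at 8.37, 10.38 and 3.47 in K562 and 2.61 and 2.32 in HEL. TOX, a transcription factor of lymphocyte development, was at 8.28, 10.32 and 4.56 in K562 and 2.37 on both HEL arrays. CSTA, a cysteine protease inhibitor, was at 7.82, 10.07 and 2.93 in K562 and 2.37 and 2.33 in HEL. These 3 genes could not be lower in HEL, as both HEL arrays were below 5. The same held for 85 of the 577 genes (14.7%, against 7.9% of all genes). Untreated HEL was at 7 or more in 385 (66.7%, against 70.4%). In all 5 genes named in this paragraph, replicate 2 was the highest K562 array.

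Of 21 measured ATF4 targets, genes of the amino acid and integrated stress response, 14 were lower in K562 (6.32% of all genes were), 11 of them in K562 alone (5.64% of all genes), and none was higher. In HEL 1 was lower (0.811% of all genes were), DDIT3, and the list's median change was -1.25 in K562 and -0.11 in HEL. The count in K562 was 16 against replicate 1 alone and 14 against replicate 2 alone, where over all genes it was 548 and 1015. TRIB3, a pseudokinase of the stress response, was at 12.78 and 12.66 in untreated K562, 10.43 with DAC, and at 8.68 and 9.46 in HEL. With a change of -2.29 in K562 and 0.78 in HEL, its interaction was -3.07. CTH, cystathionine gamma-lyase, was at 11.34, 10.42 and 8.85 in K562 and 8.44 and 8.92 in HEL. SESN2, a stress-induced regulator of mTORC1 that the p53 list also holds, was at 10.17, 9.78 and 8.23 in K562 and 6.99 and 7.19 in HEL. All 3 were higher in untreated K562 than in HEL, and DAC brought the K562 level nearer to that of HEL. The stress factor DDIT3 was instead lower in both, at 10.20, 10.53 and 9.03 in K562 and 7.75 and 6.68 in HEL.

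STAT5 acts downstream of both BCR-ABL1 and activated JAK2. The list of JAK-STAT5 output genes was chosen broadly, and SPRY4 in it is not specific to STAT5. Of 21 measured, 5 were lower in K562 alone (SOCS1, SOCS2, CCND1, ID1 and SPRY4), none was lower in HEL, and the medians were -0.72 and 0.00. Over all genes 5.64% were lower in K562 alone and 0.811% lower in HEL, a share at which a list of this size would hold few or none. The count lower in K562 was 7 against replicate 1 alone and 4 against replicate 2 alone, where over all genes it was 548 and 1015. ID1 and SPRY4 were not past 2-fold against replicate 2 alone. SOCS2, a feedback inhibitor of cytokine signalling, was at 13.56, 13.88 and 12.02 in K562 and 9.12 and 8.99 in HEL. SOCS1, of the same family, was at 9.52, 9.08 and 7.70 in K562 and 5.89 and 5.71 in HEL. For both genes the K562 levels were above HEL also with DAC. MYC, the growth-promoting transcription factor, was at 13.63, 13.33 and 12.97 in K562 and 13.62 and 13.55 in HEL.

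Of 35 measured interferon-stimulated genes, 7 were higher in K562 alone, 3 lower in K562 alone, and none passed 2-fold in HEL, with medians of 0.00 and -0.08. Over all genes the shares were 4.12%, 5.64% and 1.46%, and the lower genes and the HEL genes of the list are near these. ISG15, a ubiquitin-like modifier, was at 8.37, 8.80 and 10.10 in K562 and 9.18 and 9.08 in HEL. IFIH1, the RNA sensor MDA5, was at 4.98, 5.88 and 6.52 in K562 and 8.11 and 7.60 in HEL. IFITM2, a membrane protein that blocks virus entry, was at 12.48, 13.16 and 10.63 in K562 and 12.48 and 12.01 in HEL. IFIH1 was not past 2-fold against replicate 2 alone. In the list, 9 genes were below 5 on all 3 K562 arrays, among them TRIM22, MX2 and IFI44, which were at 6.60 or more in HEL. Of 19 antigen presentation genes, 1 was higher and 2 were lower in K562 alone, beside 4.12% and 5.64% of all genes. HLA-E, a nonclassical class I molecule, was at 10.54, 11.49 and 8.07 in K562 and 11.56 and 10.97 in HEL.

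Few genes of the kind that methylation is known to silence passed the filter. Of 72 genes in the cancer-testis and germline list, 12 were measured, so any that stayed below 5 on all 5 arrays are not counted. Of these 12, 11 were at 5 or more on untreated K562 replicate 1 and 10 on replicate 2, so most were not silent there. In K562 alone 3 were higher (TEX15, MAGEC1 and TUBB3), beside 4.12% of all genes. The other probe set of TEX15 had an interaction of -0.17. TUBB3, the neuronal tubulin, was on in untreated K562 at 11.96 and 11.19, so it was not a silent gene there. It was not past 2-fold against replicate 1 alone. MAGEC1, a melanoma antigen family member, was at 8.19, 8.36 and 9.37 in K562 and 2.29 and 2.56 in HEL. The germ cell factor CTCFL was on in K562 without DAC, at 11.17 and 11.70, then 11.72 with it, and off in HEL at 2.78 and 2.55. PRAME, another tumor antigen, was on in both lines, at 13.67, 13.81 and 13.70 in K562 and 9.91 and 10.27 in HEL. Among 13 imprinted genes, 3 were higher and 1 lower in K562 alone. Over all genes the shares were 4.12% and 5.64%. Against replicate 2 alone, 2 of the 13 were higher in K562 and 3 lower. MEG3, higher with the mean of both, changed by 0.713 against replicate 2 alone. Its other probe sets changed by -0.968, 1.325 and 0.498 in K562 against the mean. MEST, a paternally expressed hydrolase, was at 5.80 and 6.06 in untreated K562, 9.92 with DAC, and 10.91 and 11.10 in HEL. With both untreated K562 arrays above 5 it missed the already-on class, although its pattern was alike. Of 12 clustered histone genes, 6 were higher in K562 alone (4.12% of all genes were) and 1, H2AC6, was higher in HEL. H2AC8, H2BC4, H2BC21 and H4C8 of the 6 were below 5 on both HEL arrays, so raising values to 5 made them quiet there. H2AC8 was at 7.18, 7.37 and 9.34 in K562 and 2.42 and 3.51 in HEL.

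Of the genes higher in HEL alone, SDF2L1, a protein of the endoplasmic reticulum chaperone complex, had the largest interaction. It was at 5.13 without and 7.33 with DAC in HEL and at 10.30, 10.61 and 10.65 in K562, an interaction of -2.00. K562 was below 5 on all 3 arrays in 14 of the 27 genes (51.9%, against 6.97% of all genes). These passed the filter only through HEL and could not have been lower in K562. Raising values to 5 left them no K562 change, so the limit itself made them quiet there. THBS1, the matrix protein thrombospondin-1, was at 6.05 and 7.40 in HEL and at 2.38, 2.25 and 2.30 in K562. CD226, an adhesion receptor of platelets and lymphocytes, was at 8.16 and 9.38 in HEL and at 2.25 on all K562 arrays. Others were SLC16A7, a monocarboxylate transporter (6.75 and 8.29), CRYM, a thyroid hormone binding protein (7.26 and 8.49), and B3GNT7, a glycosyltransferase (6.30 and 7.43), all below 5 in K562. For such genes the interaction is the HEL change, and the small limma SE of 0.16 for CD226 rests on K562 values at the lowest level of the arrays. SLC16A7 had 3 other probe sets, of which 2 had an interaction of the same sign. Of the 13 genes that K562 also measured, CBX5, heterochromatin protein 1 alpha, was at 10.07 and 11.21 in HEL and 10.81, 11.18 and 11.21 in K562. Its HEL rise was read by 2 of 6 kept probe sets, and the others changed by 0.07 to 0.36 there.

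Among genes lower in HEL alone, K562 was below 5 on all 3 arrays in 33 of 57 (57.9%, against 6.97% of all genes). These too passed the filter only through HEL, and the limit of 5 made them quiet in K562. MPDZ, a scaffold protein of cell junctions, was at 7.63 and 5.57 in HEL and 2.25 on all K562 arrays, an interaction of 2.06. DPY19L2, a protein needed for sperm head formation, was at 7.42 and 5.57 in HEL and also at 2.25 in K562. Both were therefore measured in HEL only. ADAMTSL4, a matrix protein, was at 8.15 and 6.72 in HEL and 9.56, 8.23 and 9.43 in K562. Its other probe set was below 5 on both HEL arrays, at 2.86 and 2.72, and at 4.6, 4.2 and 6.6 in K562. By that probe set ADAMTSL4 was higher in K562 alone. FOXO4, a forkhead transcription factor, was at 6.36 and 4.76 in HEL and 6.67, 6.78 and 7.14 in K562. ALOX5, the 5-lipoxygenase of leukotriene synthesis, was at 9.94 and 8.71 in HEL and 4.15, 5.64 and 5.88 in K562. As deposited, ALOX5 rose by 0.98 in K562, and it counted as quiet there at 0.56 with values raised to 5. Against replicate 1 alone that change was 0.88 and ALOX5 left the class, and against replicate 2 alone ADAMTSL4 rose by 1.20 in K562 and left it too.

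Opposite directions were rare. BGLT3, a noncoding RNA of the beta globin locus, was at 5.33 and 5.15 in untreated K562 and 6.95 with DAC, and at 8.25 and 7.08 in HEL, so that the lines ended at about the same level. SYDE2 was at 5.11 and 4.57 in untreated K562, 6.47 with DAC, and 6.60 and 5.52 in HEL. FNDC3B, a fibronectin type III domain protein, was at 9.26 and 10.15 in untreated K562, 7.03 with DAC, and 4.56 and 6.28 in HEL. The K562 fall of FNDC3B was read by all 5 of its kept probe sets. Its HEL rise was read by 1, since another went from 6.62 to 6.02 and the rest stayed below 5, and after quantile normalization, where that other probe set was the brightest, the gene left the class.

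RNA of DNMT1, DCK and SAMHD1, which encode enzymes that DAC meets, was measured in both lines, but the proteins were not. DNMT1, the maintenance methyltransferase, was at 12.52, 12.58 and 12.31 in K562 and 13.32 and 12.98 in HEL. DCK, the kinase that activates DAC, was at 10.97, 11.55 and 10.47 in K562 and 11.33 and 11.14 in HEL. SLC29A1, a nucleoside transporter, was at 8.27 and 7.32 in untreated K562, 10.05 with DAC, and 9.46 and 9.97 in HEL. UHRF1, which guides DNMT1 to replicating DNA, was at 11.55, 10.97 and 12.38 in K562 and 11.00 and 11.15 in HEL. SAMHD1, which breaks down deoxynucleotide triphosphates, was at 8.11, 8.23 and 8.60 in K562 and 5.92 and 5.88 in HEL. SLC29A1 and UHRF1 were the 2 of the list's 24 measured genes past 2-fold, both higher in K562 alone (4.12% of all genes were), and 1 was higher against replicate 1 alone and 4 against replicate 2 alone. CDA, cytidine deaminase, was not among the genes tested.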

How the data were processed

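RNA of K562 and HEL cells was hybridized to 9 Affymetrix arrays, of which 5 were compared. The authors deposited log2 expression values per probe set, for which the submitters' processing notes name GCRMA with no version. GCRMA corrects background by probe sequence, normalizes by quantiles and summarizes probes, which removes any shift common to most genes from the table. The selection of its 27306 probe sets is described in no source used here. The platform annotation named 1 gene for 22858, several for 1164 and none for 3284. Arrays had medians of 6.70 to 6.78, and 66.0% to 66.6% of probe sets were at 5 or more. The number of arrays limits the precision.

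Values were computed in Python 3.11.15 and the interaction was tested in R 4.3.3 with limma 3.58.1 (lmFit and eBayes, two-sided, Benjamini-Hochberg over 10239 genes, threshold 0.05), after the fit had been tested on simulated data. The paper names no test for these arrays. Named genes had a highest value of at least 7 and ranked first by interaction in their class (6 for genes higher in 1 line alone, 5 for genes lower in 1 line alone and for the already-on classes, 4 for opposite directions), with up to 3 of each list and the genes that DAC acts through. SYDE2, which peaked below 7, and the other genes of the classes and lists were named after their values were seen. Members and lists were chosen with earlier results of these data known. Y-linked genes were left out of naming. The hemin arrays entered 1 alternative fit of 7 arrays, and the PMA arrays were not used.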

Additional observations from a re-analysis of the deposited data

Results flagged for a closer look

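In 3 genes the lines moved in opposite directions, by at least 2-fold each, and the difference between the lines was not tested in any of them beyond the limma fit, since HEL has 1 array for each condition. The interaction was 2.88 for BGLT3, 2.49 for SYDE2 and -3.95 for FNDC3B, with values raised to 5. BGLT3 and SYDE2 had 1 kept probe set each. For FNDC3B the direction in HEL held for 1 of 5 probe sets.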

How the results depend on the processing

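The number of genes past 2-fold in the interaction stayed within 1.5 times under every alternative run, at 621 to 991 higher and 662 to 1113 lower when either untreated K562 array was left out. With 1 untreated array left out, genes higher in K562 alone numbered 339 to 721, lower in K562 alone 490 to 907, higher in HEL alone 28 to 35, lower in HEL alone 53 to 58, opposite with K562 higher 2 to 4, and already on in HEL 22 to 31. With a response of 1.5-fold in place of 2-fold, the counts were 1186 and 1403 for K562 alone, 217 and 321 for HEL alone, 28 and 19 for opposite directions and 4 for genes already on in K562. Without raising values to 5, they were 62 and 108 for HEL alone, 5 for opposite with HEL higher, and 40 and 13 for genes already on in the other line. After quantile normalization 0 genes were opposite with HEL higher, because another FNDC3B probe set became the brightest, and with the mean of all kept probe sets the 1 such gene was not FNDC3B. The causes of the other changes were not tested. No alternative limma fit gave an adjusted p under 0.05, with a smallest of 0.0557 with an intensity trend and 0.225 with the hemin arrays added (664 genes at an unadjusted p under 0.05). Over 648 alternative values of 81 named genes, 2 changed sign, DNMT3A without replicate 1 (-0.13) and ITGAM without replicate 2 (0.44). No paired analysis was possible because the labels give no shared replicate numbers. Depth cannot be read from array signals, and values near 2.25, the lowest level, carry no order.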

Other observations

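Some genes changed in both lines. TMEFF2, a transmembrane protein with follistatin domains, was at 6.16, 5.04 and 8.31 in K562 and 4.58 and 8.29 in HEL, the largest HEL rise among them. By its only kept probe set, the ribosomal protein gene RPLP2 was at 4.96, 4.71 and 7.90 in K562 and 4.73 and 7.74 in HEL. It was thus below the limit of 5 without DAC in both lines. RPL27A, also by its only kept probe set, was at 7.76, 7.83 and 9.71 in K562 and 7.16 and 9.79 in HEL. Whether these probe sets read the main transcripts of the ribosomal protein genes was not tested. PKLR, pyruvate kinase of liver and red cells, was at 9.28, 6.92 and 12.67 in K562 and 7.13 and 8.67 in HEL, so its interaction of 3.04 lay between a large and a smaller rise. Lower in both were FMNL1, a formin of blood cells (8.59, 8.69 and 4.39 in K562, 8.60 and 6.91 in HEL), and PBX2, a HOX cofactor (8.62, 10.64 and 8.03 in K562, 8.77 and 7.18 in HEL), whose interaction was 0.00. PBX2 was read lower by 1 of 3 probe sets, the others changing by 0.07 and 0.36 in K562 and -0.14 and -0.02 in HEL, and it was not past 2-fold in K562 against replicate 1 alone.

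Other lists, chosen in the same way, are given beside 4.85% higher and 6.32% lower in K562 over all genes. Of 31 proliferation genes, 1 was higher in K562, MCM4, and none in HEL, with medians of 0.28 and 0.08 (none against replicate 1 alone, 2 against replicate 2 alone). Of 14 HOX and cofactor genes, 5 were lower in K562 and 2 in HEL (HOXB9 and PBX2), with 4 in K562 against replicate 1 alone and 3 against replicate 2 alone. Of 20 p53 targets, 3 were lower in K562 alone, whereas against replicate 1 alone 2 were lower and 2 higher, and against replicate 2 alone 5 were lower. Of 16 cholesterol synthesis genes, 1 was lower in K562, STARD4, and 2 were against replicate 2 alone. The imprinted gene DIRAS3, a Ras family member, was at 2.77 on untreated K562 replicate 1 and 7.01 on replicate 2, then 2.81 with DAC, and was below 5 in HEL.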
